A study of Mus musculus with 12 samples.

Results

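The 10 genes described here encode integrin subunits, 6 alpha chains (Itga1, Itga2, Itga3, Itga5, Itga6, Itgav) and 4 beta chains (Itgb1, Itgb3, Itgb6, Itgb8). They are a fixed list of names out of the 32285 genes of the matrices, with no threshold on a measured value. The list was chosen with earlier results of these data known, so its counts beside all genes are descriptive. The single-nucleus RNA-seq counts of these genes were followed across the liver cell types and the steps by which primary hepatocytes are prepared. All 10 were detected, and all 10 could be tested in hepatocyte, endothelial and stellate nuclei, whereas Itga3, Itgb6 and Itgb8 had fewer than 10 counts in Kupffer nuclei and were not tested there.

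The study took 8 adult male wild-type mice, C57BL6J in the labels, C57BL/6NTac in the study's methods, kept on chow. From each mouse a piece of the median lobe was tied off and snap-frozen after the liver had been flushed with an EGTA buffer, which gave the Liver sample. The rest of the same liver was perfused with collagenase, strained and spun at low speed to enrich hepatocytes, which gave the Cell Suspension sample. Part of the suspension was plated on collagen-coated wells for 24 h in medium with dexamethasone, insulin and low serum, and was then trypsinised and frozen, which gave the Primary Hepatocytes sample. The 24 samples, 8 of each type, were marked with hashtag antibodies and run in 6 pools of 4 samples. Liver samples were in pools 1, 2, 5 and 6 and Primary Hepatocytes in pools 2, 3, 4 and 5, with Cell Suspension in every pool, so pool and sample type partly coincided. Because each mouse gave 1 sample of each type, the 8 samples of a type were separate animals.

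Integrins are transmembrane receptors made of 1 alpha and 1 beta chain that hold cells to the extracellular matrix and signal through talin, kindlin and focal adhesion kinase at their cytoplasmic tails. The beta 1 chain (Itgb1) pairs with Itga1 and Itga2 to bind collagen, with Itga3 and Itga6 to bind laminin and with Itga5 to bind fibronectin. Itgav pairs with several beta chains and binds proteins that carry the RGD motif, among them vitronectin and fibronectin with Itgb3, and the latent form of TGF-beta with Itgb6 and Itgb8, which releases the active growth factor. In normal liver Itga1 with Itgb1 is the best known integrin of hepatocytes and sinusoidal cells, and integrin alpha v on stellate cells is known for its part in fibrosis.

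The 2 collagen-binding alpha chains are neighbours. Itga1 spanned chr13:114953096-115101964 and Itga2 chr13:114833081-114932100 (GENCODE, GRCm38, the build named in the labels), both on the minus strand with 21.0 kb between them. As shown in the results, they moved in opposite directions in cultured hepatocytes, so their promoters are printed together with that of Itgav, the alpha chain with the highest level there. Each sequence runs from 250 bases before to 50 bases after the start of the gene and comes from RefSeq (GRCm38.p6). Promoters of 8 of the 10 genes were matched, and those of Itga6 and Itgb3 were not analysed here. Capitals mark GGGCGG, the core of the GC box.
Itga1 (chr13:115101915-115102214, minus strand): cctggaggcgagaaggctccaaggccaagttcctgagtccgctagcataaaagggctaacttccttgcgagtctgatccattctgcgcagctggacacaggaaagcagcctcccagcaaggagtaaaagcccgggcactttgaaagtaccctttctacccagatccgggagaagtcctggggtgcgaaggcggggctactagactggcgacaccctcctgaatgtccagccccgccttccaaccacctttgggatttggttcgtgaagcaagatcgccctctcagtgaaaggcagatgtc
Itga2 (chr13:114932051-114932350, minus strand): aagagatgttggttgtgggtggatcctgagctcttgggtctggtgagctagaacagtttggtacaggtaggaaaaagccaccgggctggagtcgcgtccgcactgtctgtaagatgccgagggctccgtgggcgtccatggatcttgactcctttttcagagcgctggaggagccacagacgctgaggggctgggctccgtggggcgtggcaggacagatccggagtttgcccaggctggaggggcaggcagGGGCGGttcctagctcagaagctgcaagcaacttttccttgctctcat
Itgav (chr2:83724147-83724446, plus strand): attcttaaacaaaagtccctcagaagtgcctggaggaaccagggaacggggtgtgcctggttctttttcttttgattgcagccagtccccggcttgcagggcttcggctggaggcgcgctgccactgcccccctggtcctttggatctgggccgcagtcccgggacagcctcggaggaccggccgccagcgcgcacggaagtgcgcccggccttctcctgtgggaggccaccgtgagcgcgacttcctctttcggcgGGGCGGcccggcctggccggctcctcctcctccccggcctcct
Itga2 and Itgav each held 1 GGGCGG on either strand, which 35.7% of 32851 promoters of the same length held, and Itga1 held none. TGANTCA, the site of AP-1, and GGAATG, that of TEAD factors, were found in 7.81% and 14.7% of all promoters and in none of these 3 windows.

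The other genes lay on chr11 (Itga3, chr11:95044474-95076801; Itgb3, chr11:104608000-104670476), chr15 (Itga5, chr15:103344286-103366763), chr2 (Itga6, chr2:71745616-71858416; Itgav, chr2:83724397-83806916; Itgb6, chr2:60598292-60722643), chr8 (Itgb1, chr8:128685654-128733200) and chr12 (Itgb8, chr12:119158022-119238802). Itga1 overlapped Pelo on the same strand, which was counted separately with 2266 UMIs (unique molecular identifiers, each standing for 1 captured molecule) against 42158 for Itga1. Of the antisense genes, Gm10734 within Itga1 held 1082 UMIs, and Gm13684 within Itgav held 341 UMIs against 37393 for Itgav.

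Levels are given as CPM, the gene's UMIs summed over the nuclei of a cell type in a sample and scaled to a total of 1000000 UMIs over all genes. The deposited table assigned a cell type to 53467 nuclei, and 14998, 12589 and 14760 of these were hepatocyte nuclei of Liver, Cell Suspension and Primary Hepatocytes. In the same order there were 2472, 1126 and 1733 endothelial and 878, 144 and 175 stellate nuclei, with 919 and 342 Kupffer nuclei in Liver and Cell Suspension and 365 leukocyte and 220 biliary nuclei in Liver. Cultured nuclei carried a common name in that table and were divided by the authors' clusters, 0, 1, 14 and 17 as hepatocyte, 12 as endothelial and 27 as stellate. The clusters were made from the same expression data, so tests between these nuclei and others are not independent of the assignment. A sample held 2065229 to 29018248 UMIs in hepatocyte nuclei, 41532 to 2578536 in endothelial and 21649 to 754882 in the stellate nuclei used, so that levels in hepatocytes were counted far more precisely than those in stellate nuclei of the later steps. 1 Cell Suspension and 1 Primary Hepatocytes sample had fewer than 10 stellate nuclei and were left out there, which left 135 and 168 nuclei (n = 7 each). The names were checked against marker genes. The 8 hepatocyte markers summed to 9884 to 15185 CPM in hepatocyte nuclei of Liver and 1960 to 5781 in culture, the 8 endothelial markers to 10347 to 13804 CPM in endothelial nuclei of Liver and 4347 to 6470 in culture, and the 8 stellate markers to 18641 to 24729 CPM and 3095 to 5171 CPM in stellate nuclei. The hepatocyte markers alone did not set cultured hepatocyte nuclei apart. They summed to 1059 to 4174.5 CPM in cultured endothelial nuclei and 1800 to 4367 CPM in Kupffer nuclei of Liver. The endothelial markers did separate cultured hepatocyte from cultured endothelial nuclei, at 70.3 to 142 CPM in the former. The biliary name did not hold for cluster 28, with 157 of its 220 Liver nuclei. Over all samples together this cluster had 5284 CPM of mesothelial markers and 295 CPM of biliary ones. Of the barcodes in the table, 337 occurred in more than 1 pool.

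Droplet data also hold RNA that was free in the suspension. In barcodes outside the table with at most 100 UMIs, Itga1 had 79.3 to 194 CPM over the 6 pools, Itgb1 77.8 to 170 CPM, Itgav 28.7 to 157 CPM, Itga3 5.20 to 42.9 CPM, Itga5 15.6 to 32.6 CPM, Itgb3 5.20 to 32.7 CPM, Itga6 0 to 26.6 CPM, Itga2 0 to 24.2 CPM, Itgb8 0 to 6.93 CPM and Itgb6 0 to 6.11 CPM. These barcodes can themselves hold broken nuclei, and many levels given below lie within these ranges. In hepatocyte nuclei of Liver, the sample lay below the free RNA of its own pool in 7 of 8 mice for Itga1 and Itga3, 8 of 8 for Itgb1 and Itgb3, 6 of 8 for Itga5, 5 of 8 for Itga6 and Itgb8, 4 of 8 for Itga2 and Itgb6 and 2 of 8 for Itgav. In Primary Hepatocytes it was 8 of 8 for Itga1 and Itgb3, 5 of 8 for Itgb8, 4 of 8 for Itga3 and Itgb6, 3 of 8 for Itga5, 2 of 8 for Itga2, 1 of 8 for Itga6 and 0 of 8 for Itgav and Itgb1. The part of free RNA in these levels was not tested. In whole sums of nuclei, fewer expressing nuclei and less RNA per nucleus cannot be told apart.

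In Liver, each of the 10 genes had its highest mean level outside hepatocytes, in stellate, endothelial, Kupffer, leukocyte or biliary nuclei. Several other cell types were compared with hepatocytes, all on far fewer UMIs, and the share of all genes meeting this was not counted. Itga1, the collagen receptor chain, was highest in stellate nuclei, with a lowest, median and highest sample of 938, 1163 and 1514 CPM (1179 ± 170, SD, n = 8). Endothelial nuclei followed with 668, 825 and 1025 CPM (835 ± 128), lower than stellate nuclei in 8 of 8 mice although the ranges overlapped. Hepatocyte nuclei had 95.6, 122 and 130 CPM (117 ± 11.8) and Kupffer nuclei 42.9 ± 26.9 CPM, below hepatocytes in every mouse. The hepatocyte level lay within the range of free RNA, and the 8 endothelial markers summed to 28.6 to 45.1 CPM in the same hepatocyte nuclei. The part of free RNA in the level was not tested. When each nucleus was thinned to 1000 UMIs, a UMI of Itga1 was found in 65.9% of stellate, 51.2% of endothelial, 10.0% of hepatocyte and 3.89% of Kupffer nuclei (86.1%, 75.9%, 50.6% and 7.42% before thinning). This left out 67, 161, 508 and 104 shallower nuclei.

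Itga2, the other collagen-binding chain and a platelet receptor, was rare in the tissue. Hepatocyte nuclei had 2.89, 3.75 and 4.40 CPM, endothelial nuclei 5.75 ± 1.18 CPM and Kupffer nuclei 3.79 ± 4.41 CPM. Leukocyte nuclei were the exception at 8.48, 70.0 and 177 CPM, above biliary nuclei in 8 of 8 mice. Over all Liver samples together, the level within the leukocyte name lay in cluster 25 (244 nuclei), with 129 CPM of Itga2 and 319 CPM of Itga1. Cluster 29 (121 nuclei) had 3.49 and 38.4 CPM.

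The laminin-binding chains differed in where they were found. Itga3 was highest under the biliary name, at 0, 189 and 307 CPM, and stood at 10.4 ± 3.20 CPM in endothelial, 6.22 ± 1.33 CPM in hepatocyte and 0.30 ± 0.84 CPM in Kupffer nuclei. Over all Liver samples together, both clusters of that name held Itga3, cluster 28 at 259 CPM and cluster 30 at 96.6 CPM. The biliary markers of cluster 30 summed to 9969 CPM. Itga6 had 63.8 ± 33.4 CPM in leukocyte and 63.5 ± 8.92 CPM in endothelial nuclei, each higher in 4 of 8 mice, and 3.26 ± 1.24 CPM in hepatocytes. Among the authors' endothelial clusters, over all Liver samples, Itga3 had 3.55 CPM in cluster 3 and 51.6 CPM in cluster 24. Itga6 had 46.3 CPM in cluster 3 and 124 CPM in cluster 26. Cluster 24 also had 726 CPM of mesothelial markers, against 15.8 CPM in cluster 3.

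Among the RGD-binding chains, Itga5, the fibronectin receptor chain, was highest in endothelial nuclei (56.9 ± 12 CPM) and low in stellate (21.7 ± 7.84 CPM) and hepatocyte nuclei (19.6 ± 5.91 CPM), both means within the range of free RNA. Itgav was highest in Kupffer nuclei, the resident macrophages, with 201, 324 and 473 CPM, above stellate nuclei (103 ± 14.5 CPM) in every mouse and with no overlap. Endothelial (55.7 ± 12.7 CPM) and hepatocyte nuclei (41.8 ± 5.41 CPM) were lowest, and differed from each other in the same direction in 7 of 8 mice.

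Of the beta chains, Itgb1, the common partner, had means from 79.1 to 276 CPM over the cell types. Leukocyte (276 ± 142 CPM), stellate (267 ± 49.7 CPM) and Kupffer nuclei (248 ± 34.4 CPM) overlapped, endothelial nuclei had 202 ± 29.6 CPM, and hepatocytes were lowest at 68.7, 77.7 and 94.1 CPM. Itgb3, the partner of Itgav in the vitronectin receptor, was highest in stellate nuclei at 55.2, 194 and 317 CPM. It was lower in endothelial nuclei (13.3, 26.4 and 62.7 CPM), in Kupffer nuclei (2.81 ± 2.72 CPM) and in hepatocytes (0.61 ± 0.32 CPM).

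The partners of Itgav that activate TGF-beta were rare. Itgb8 was highest under the biliary name at 26.5, 48.8 and 158 CPM and in stellate nuclei at 8.47, 33.2 and 75.9 CPM, and was at 0.36 ± 0.25 CPM in hepatocytes. Over all Liver samples together, cluster 30 (63 nuclei) had 216 CPM of Itgb8 on 38 UMIs and 39.8 CPM of Itgb6 on 7 UMIs. Its only sample with at least 10 nuclei had 102 CPM of Itgb8 and 34.0 CPM of Itgb6. Cluster 28 had 1.90 CPM of Itgb8 and 98.9 CPM of Itgb3. Itgb6, an epithelial chain, had its highest Liver mean, 10.9 CPM, under the biliary name. That mean leaned on mouse 5, at 41.0 CPM on 4 UMIs, while mice 1, 2, 4 and 6 had 0 CPM. The 42 nuclei of that name in Cell Suspension, most samples with fewer than 10 of them, held 3 UMIs (29.9 CPM over all samples).

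**Figure D1:**
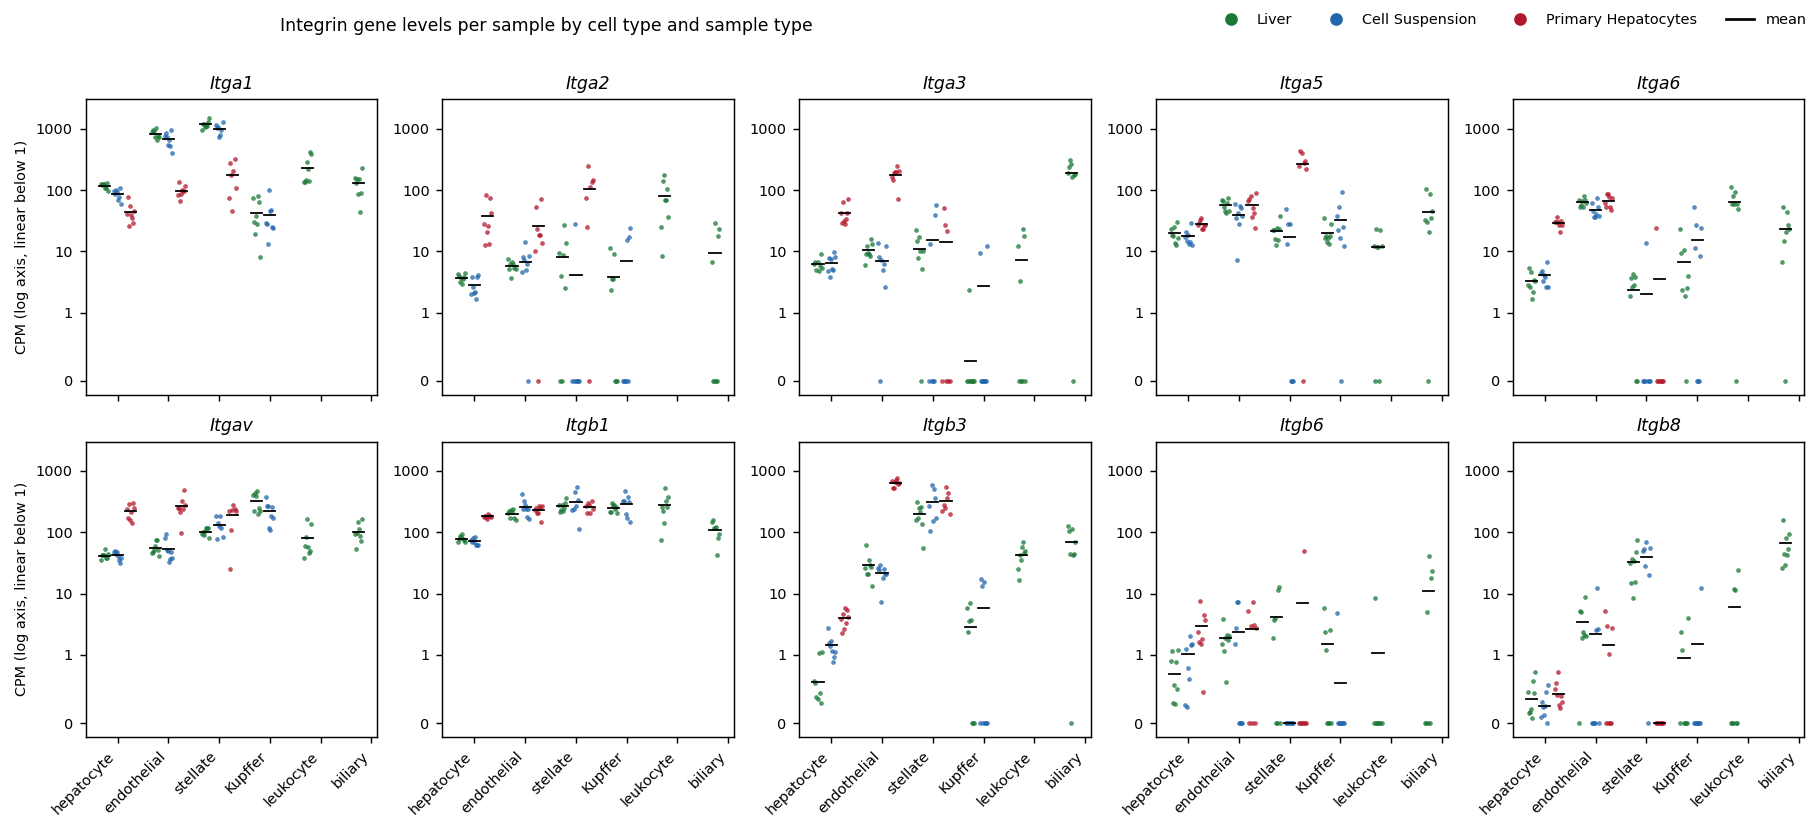
CPM of each of the 10 integrin genes in every sample, by cell type and by sample type (Liver, Cell Suspension, Primary Hepatocytes), on a log axis that is linear below 1. Points are samples of single mice and bars are means. Itga1 falls in hepatocyte, endothelial and stellate nuclei of Primary Hepatocytes, and Itgb3 rises from a mean of 29.2 to 640.1 CPM in endothelial nuclei.

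The step from Liver to Cell Suspension covers collagenase, straining and spinning. Differences were tested with edgeR's quasi-likelihood test after TMM scaling, with p adjusted over all genes, and are given as log2 fold changes ± SE. In hepatocyte nuclei 1 of the 10 genes was called between Cell Suspension and Liver, with 21.2% of all genes called. That gene was Itgb3, which had 0.30, 0.51 and 1.12 CPM in Liver and 0.90, 1.29 and 2.73 CPM in Cell Suspension. It was higher by 1.48 ± 0.32 (edgeR adjusted p = 0.00097), but both levels lay under the lowest value of free RNA. Itga1 was lower in Cell Suspension in 8 of 8 mice, at 86.6 ± 16.0 CPM, with a log2 difference of -0.28 ± 0.16 that did not pass the test (edgeR adjusted p = 0.26). Itga6 differed by 0.49 ± 0.19 (edgeR adjusted p = 0.066) and passed with the mouse as a block, at 0.50 (edgeR adjusted p = 0.0302).

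None of the 10 genes was called by edgeR between Cell Suspension and Liver in endothelial nuclei (4% of all genes called) or in stellate nuclei (2.65%), and none of the 7 tested in Kupffer nuclei (1.3%). At an unadjusted p under 0.05 there were 1, 1 and 2 genes, and DESeq2 called 1, 0 and 0. Shares of all genes at these settings are not given, so these counts are a description only. The endothelial gene was Itgb1, with 160, 211 and 237 CPM in Liver and 166, 241 and 427 CPM in Cell Suspension, and a log2 difference of 0.45 ± 0.16 (edgeR adjusted p = 0.13) that passed with RLE scaling, at 0.54 (edgeR adjusted p = 0.023). Stellate Itga1 had 738, 1011 and 1270 CPM after isolation and differed by -0.53 ± 0.20 (edgeR adjusted p = 0.13), where TMM placed the median of all genes at -0.39. In Kupffer nuclei Itgav had 218.9 ± 89.9 CPM in Cell Suspension and differed by -0.53 ± 0.23 (edgeR adjusted p = 0.35). With the pool as a covariate the Kupffer difference of Itgav was -1.08 and was called (edgeR adjusted p = 0.0107). The share of called genes that were higher in Cell Suspension was 35.9% in hepatocytes, 53.1% in endothelial, 31.5% in stellate and 82.8% in Kupffer nuclei, and with RLE scaling it was 47.0%, 65.9%, 86.6% and 94.9%.

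Most of the integrin genes differed between hepatocyte nuclei after 24 h of culture and those of Liver. This comparison also spans isolation, trypsin and partly different pools, and their parts were not tested. In Primary Hepatocytes 7 of the 10 were higher and 1 lower than in Liver, where 27.5% of all genes were called higher and 26.7% lower. Itga2, Itga3, Itga6, Itgav, Itgb1, Itgb3 and Itgb6 rose, Itga1 fell, and Itga5 and Itgb8 did not pass the test. The ranges of the 8 Liver and 8 Primary Hepatocytes samples did not overlap for 7 of the 10 genes, as held for 35.6% of all genes. Relative to library totals, all hepatocyte genes shifted by a median of 0.57 on the log2 scale, and TMM brought that to 0.04, so that after TMM a rise is smaller, and a fall larger, than the ratio of CPM values. The share of calls that were higher was 50.7% with TMM and 74.1% without it.

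The collagen-binding neighbours moved apart. Itga2 had 2.89, 3.75 and 4.40 CPM in Liver, 1.69, 2.39 and 4.12 CPM in Cell Suspension and 12.6, 26.95 and 83.7 CPM in Primary Hepatocytes. Every cultured sample was above every sample of the earlier steps, with a spread of several fold between mice (mean 37.7 ± 27.5 CPM), and the log2 difference from Liver was 2.81 ± 0.31 (edgeR adjusted p = 3.25e-09). Free RNA of Itga2 was 0 and 4.095 CPM in the pools without Primary Hepatocytes and 14.3 and 24.2 CPM in the pools without Liver. Mouse 6 (13.0 CPM, pool 3) and mouse 2 (12.6 CPM, pool 4) lay below the free RNA of their own pool, at 14.3 and 24.2 CPM, and the part of free RNA in the level was not tested. Itga1 fell from 95.6, 122 and 130 CPM in Liver to 25.7, 40.1 and 76.7 CPM, by 1.98 on the log2 scale (SE 0.17, edgeR adjusted p = 1.29e-11), a 3.95-fold fall, in 8 of 8 mice. Free RNA of Itga1 moved the same way, from 164 and 187 CPM in the pools without Primary Hepatocytes to 93.4 and 104 CPM in those without Liver, and its part in the fall was not tested.

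Both laminin-binding chains rose. Itga6 went from 1.69, 3.06 and 5.39 CPM in Liver to 20.5, 29.9 and 36.2 CPM in culture, a log2 difference of 2.66 ± 0.18 (edgeR adjusted p = 5.13e-14). Itga3 went from 4.89, 6.10 and 8.94 CPM to 27.6, 37.6 and 70.7 CPM, a log2 difference of 2.25 ± 0.19 (edgeR adjusted p = 2.08e-11). Neither pair of ranges overlapped. In the pools that held no Primary Hepatocytes, free RNA of Itga6 was 0 and 10.2 CPM and that of Itga3 8.19 and 10.2 CPM. In the pools that held no Liver, it was 15.4 and 26.6 CPM for Itga6 and 30.8 and 42.9 CPM for Itga3, so free RNA of both moved with the level in cultured nuclei. Cultured samples lay below the free RNA of their own pool in 4 of 8 mice for Itga3 and in 1 of 8 for Itga6 (mouse 6), where mouse 5 was close to it (26.8 against 26.6 CPM). Its part in either level was not tested.

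Itgav, the RGD-binding chain, was the alpha chain with the highest level in cultured hepatocytes. It had 35.4, 42.0 and 53.1 CPM in Liver, 31.5, 42.8 and 50.4 CPM in Cell Suspension and 143, 227 and 295 CPM in Primary Hepatocytes, with a log2 difference from Liver of 1.85 ± 0.16 (edgeR adjusted p = 4.18e-11). No cultured sample overlapped with either earlier step, and free RNA of Itgav stood at 28.7 and 32.6 CPM in the pools without Primary Hepatocytes and at 131 and 157 CPM in those without Liver, where it reached the lower cultured samples. Its part in the level was not tested. Itga5 had 28.0 ± 4.16 CPM in culture against 19.6 ± 5.91 CPM, higher in 7 of 8 mice by CPM. After TMM its difference was -0.03 ± 0.15 (edgeR adjusted p = 0.88), and with library totals alone it was 0.51 and was called (edgeR adjusted p = 0.00861), so that no direction is given.

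Itgb1 had 68.7, 77.7 and 94.1 CPM in hepatocytes of Liver and 167, 182 and 198 CPM in culture, with little spread between mice. The log2 difference was 0.65 ± 0.12 (edgeR adjusted p = 2.6e-05), and with the pool as a covariate 0.30 ± 0.14 (edgeR adjusted p = 0.0938), which did not pass. Free RNA of Itgb1 was 77.8 and 120.1 CPM in the pools without Primary Hepatocytes and 147 and 169.5 CPM in those without Liver, of which 147 CPM lay below the cultured range and 169.5 CPM within it, and its part was not tested. Itgb3 rose by 2.17 ± 0.29 (edgeR adjusted p = 1.24e-07) to only 2.29, 3.97 and 5.79 CPM, with its mean (4.01 CPM) below the lowest pool of free RNA, and Itgb6 rose by 1.58 ± 0.41 (edgeR adjusted p = 0.0015) to 0.46, 2.11 and 7.55 CPM. Itgb8 stayed at 0.43 ± 0.18 CPM and was not called.

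Against Cell Suspension, 6 of the 10 genes were higher in cultured hepatocytes and 1 was lower, where 27.7% and 24.2% of all genes were called. These were the genes called against Liver except Itgb6. Cell Suspension served as control in this comparison and Liver in the one above, and both used the cultured samples, so the 2 sets of calls are not independent. Itgb3 was the weakest, at 0.68 ± 0.28 (edgeR adjusted p = 0.043), and was lost with the mouse as a block (0.62, edgeR adjusted p = 0.052), with the pool as a covariate (0.38, edgeR adjusted p = 0.214), with spliced UMIs alone (0.60, edgeR adjusted p = 0.21) and without any of mice 3, 5, 6, 7 or 8.

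Endothelial nuclei carried over into the cultures shared some of the calls of hepatocyte nuclei. Between Primary Hepatocytes and Liver 4 genes rose, Itga2, Itga3, Itgav and Itgb3, and Itga1 fell, with 14% of all genes called higher and 21.5% lower. These 5 genes were called in the same direction in hepatocytes, whereas Itga6, Itgb1 and Itgb6 were called there but not here. The share of all genes called the same way in both cell types was not counted, and both came from the same samples. The ranges did not overlap for 4 of the 10 genes, as held for 9.52% of all genes. Itgb3 went from 13.3, 26.4 and 62.7 CPM in Liver and 7.17, 22.9 and 29.2 CPM in Cell Suspension to 531, 651 and 755 CPM in culture. The log2 difference from Liver was 4.23 ± 0.20 (edgeR adjusted p = 3.03e-22) and every cultured sample lay above every sample of both earlier steps. The study itself reports high Itgb3 in the cultured endothelial cluster, which was made from the same expression data. After thinning, a UMI of Itgb3 was found in 46.5% of cultured endothelial nuclei and in 0.42% of cultured hepatocyte nuclei (55.3% and 2.27% before thinning, which left out 477 and 58 nuclei).

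Itga3 had 6.12, 9.20 and 16.0 CPM in endothelial nuclei of Liver and 72.2, 193 and 247 CPM in culture, a log2 difference of 3.87 ± 0.22 (edgeR adjusted p = 9.44e-20). Itgav had 40.8, 51.6 and 74.9 CPM and then 97.6, 249 and 482 CPM, a difference of 1.99 ± 0.19 (edgeR adjusted p = 4.37e-12). Itga1 fell from 668, 825 and 1025 CPM to 67.4, 96.8 and 136 CPM, 10.1-fold after TMM (log2 difference -3.33 ± 0.19, edgeR adjusted p = 9.44e-20). The cultured level lay below the free RNA of the same pool in 5 of 8 samples, against 0 of 8 in Liver, and the part of free RNA in it was not tested. The 8 mice moved the same way for each of these 3 genes.

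Itga2 rose by 1.49 ± 0.34 (edgeR adjusted p = 0.000398) to 0, 18.5 and 72.2 CPM, on 55 UMIs in all and in 7 of 8 mice, and this call was lost with the pool as a covariate (1.14, edgeR adjusted p = 0.164) and with spliced UMIs alone (0.79, edgeR adjusted p = 0.424). Its levels in culture lay partly within the range of free RNA. Itgb1 had 228 ± 41.1 CPM in culture against 202 ± 29.6 CPM, a difference of 0.01 ± 0.17 (edgeR adjusted p = 0.97), and Itga6 had 66.9 ± 15.2 CPM against 63.5 ± 8.92 CPM, neither past the test. Cluster 3 of Liver alone, over all samples together, had 46.3 CPM of Itga6, against 69.0 CPM in the cultured cluster 12. Against Cell Suspension the same 4 genes were higher and Itga1 lower, with 8.39% and 12.9% of all genes called.

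Stellate nuclei were few in culture, 168 over 7 samples with 21649 to 141456 UMIs each, and the errors were wide. Against Liver, 2 genes were higher and 2 lower, with 7.23% and 15.7% of all genes called. Itga1 fell from 938, 1163 and 1514 CPM to 46.2, 178 and 322 CPM (n = 7), by 3.20 on the log2 scale (SE 0.24, edgeR adjusted p = 1.71e-20), in 7 of 7 mice. These cultured levels overlapped the range of free RNA (79.3 to 194 CPM), with 2 of 7 samples below that of their own pool, and its part was not tested. Itga5 rose from 12.7, 22.3 and 37.9 CPM to 0, 276 and 431 CPM, by 3.17 ± 0.31 (edgeR adjusted p = 8.89e-15), in 6 of 7 mice. Itga2 rose by 3.38 ± 0.44 (edgeR adjusted p = 8.29e-10), from 8.13 ± 8.94 CPM to 106 ± 82.6 CPM on 51 UMIs.

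Itgb8 had 120 UMIs in stellate nuclei of Liver (34.9 CPM over all samples together) and 16 in Cell Suspension (44.8 CPM), and none among the 408416 UMIs of the 7 cultured samples. A level of 3 counts over the cultured group, 7.35 CPM, would be 4.76-fold below the pooled level of Liver and 6.10-fold below that of Cell Suspension. This covers counting error of the cultured group only and takes the other pooled levels as exact. Single Liver samples ran from 8.47 to 75.9 CPM. Itgav had 189 ± 88.6 CPM against 103 ± 14.5 CPM, a log2 difference of 0.42 ± 0.26 (edgeR adjusted p = 0.25) that was called with RLE scaling (0.89) and with library totals (0.92). TMM placed the median of all stellate genes at -0.33 and RLE at 0.12, with 31.5% and 60.8% of the calls higher. Itgb1 (-0.58 ± 0.23, edgeR adjusted p = 0.056) and Itgb3 (0.19 ± 0.26, edgeR adjusted p = 0.66) did not pass. Against Cell Suspension the same 2 genes were higher and the same 2 lower, with 4.81% and 6.72% of all genes called.

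**Figure D2:**
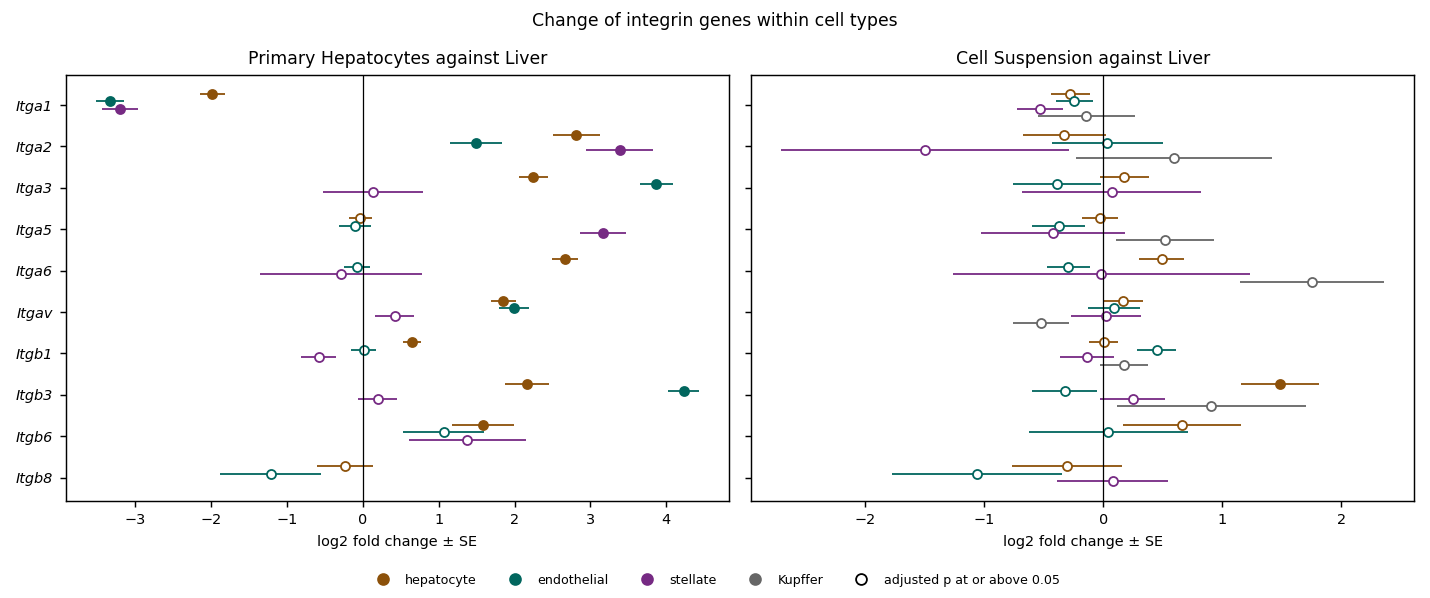
Log2 fold change ± SE of each integrin gene for Primary Hepatocytes against Liver and Cell Suspension against Liver, in hepatocyte, endothelial and stellate nuclei. Kupffer nuclei are shown for Cell Suspension against Liver. Filled points passed the edgeR test at an adjusted p under 0.05, and groups without a UMI have no point. Itga1 is negative in the 3 cell types in culture, and Itga6 is at 2.66 in hepatocytes and -0.08 in endothelial nuclei.

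Whether the change in culture differed between endothelial and hepatocyte nuclei was tested with an interaction term, since each sample gave both. In culture both cell types are clusters made from the same expression data, so the p-values can partly reflect that assignment. 5 of the 10 genes differed, 2 with a higher and 3 with a lower change in endothelial nuclei, where 14.9% and 11.3% of all genes were called. Itgb3 rose more in endothelial nuclei by 2.31 ± 0.30 (edgeR adjusted p = 3.13e-12) and Itga3 by 1.81 ± 0.26 (edgeR adjusted p = 5.13e-10). The change of Itga6 was lower in endothelial nuclei by 2.59 on the log2 scale (SE 0.24, edgeR adjusted p = 1.83e-21), with -0.08 there against 2.66 in hepatocytes. Itga1 fell further in endothelial nuclei, with a difference of -1.11 ± 0.21 (edgeR adjusted p = 3.89e-06), and when cultured-annotated nuclei of Liver and Cell Suspension and tissue-annotated nuclei of the cultures were included this was -0.30 and not called (edgeR adjusted p = 0.353). On spliced UMIs alone the difference for Itga3 was -0.0022 and not called. The change of Itgb1 differed by -0.50 ± 0.20 (edgeR adjusted p = 0.047). That of Itgav, 0.33 ± 0.21, did not pass (edgeR adjusted p = 0.27), and that of Itga2 was -0.92 ± 0.37 (edgeR adjusted p = 0.053). For Cell Suspension against Liver the changes of Itga6 (-0.98 ± 0.27, edgeR adjusted p = 0.017) and Itgb3 (-1.90 ± 0.37, edgeR adjusted p = 0.00011) differed, 2 of the 10 genes against 2.76% of all genes. The call of Itga6 was lost with RLE scaling (-0.86, edgeR adjusted p = 0.0664), on spliced UMIs alone, with nuclei of at least 1000 UMIs and without mouse 1, 3, 5 or 7. Endothelial nuclei of Liver included clusters 24 and 26 (269 and 221 nuclei, Itga6 at 114 and 124 CPM). In Cell Suspension 1068 of 1126 were of cluster 3. Within cluster 3, over all samples together, Itga6 had 46.3 CPM in Liver and 47.5 CPM in Cell Suspension. Hepatocyte Itgb3 lay below the free RNA of its own pool in 8 of 8 samples of both sample types. The part of cluster composition or free RNA in these differences was not tested.

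Cultured hepatocyte nuclei fell into 4 of the authors' clusters, and the integrin genes differed among them. These clusters were made from the same expression data, so the values are a description without a test. Itga2 had a mean of 58.3 CPM in cluster 0 and 48.4 CPM in cluster 14, against 9.16 CPM in cluster 1 and 4.44 CPM in cluster 17 (n = 8 mice). Cluster 0 was above cluster 1 in 8 of 8 mice with some overlap, and cluster 14 overlapped with neither cluster 1 nor cluster 17. Itga1 followed the same order at 71.4, 45.6, 20.1 and 18.6 CPM in clusters 0, 14, 1 and 17. Thus the clusters with more Itga2 on average also had more Itga1, although from Liver to culture the 2 neighbours moved apart. Over the mice within cluster 0 this did not hold. Mouse 3 had the most Itga2 (127 CPM) and the least Itga1 (30.8 CPM), and mouse 2 the least Itga2 (17.6 CPM) and the most Itga1 (158 CPM). Itgav ran from 266 CPM in cluster 0 over 225 CPM in cluster 14 and 173 CPM in cluster 1 to 148 CPM in cluster 17. Itgb1 had another order, 179.9 CPM in cluster 0, 199 CPM in cluster 14, 168 CPM in cluster 1 and 240 CPM in cluster 17, where no sample overlapped with clusters 0 or 1.

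Clusters 0 and 14 together held 32.8% to 64.2% of the cultured hepatocyte nuclei of a mouse. The mice with the lowest shares, mouse 6 at 32.8% and mouse 2 at 40.8%, had 13.0 and 12.6 CPM of Itga2 over all cultured hepatocyte nuclei, the lowest of the 8. At the other end the order broke, since mouse 1 had the highest share, 64.2%, with 28.1 CPM, and mouse 3 had 58.0% with 83.7 CPM.

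**Figure D3:**
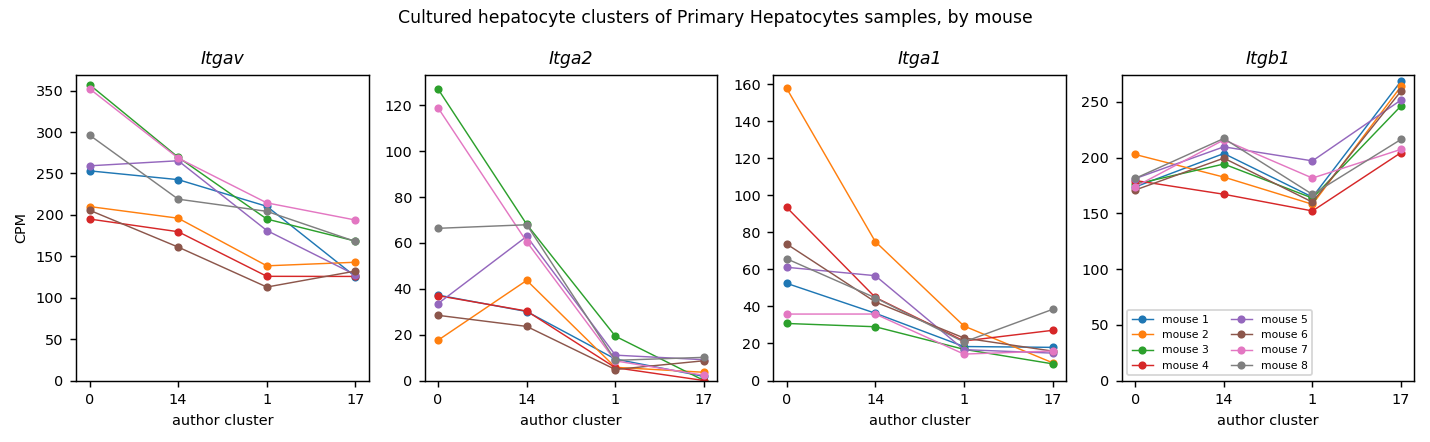
CPM of Itgav, Itga2, Itga1 and Itgb1 in cultured hepatocyte nuclei of the authors' clusters 0, 14, 1 and 17, with 1 line of points per mouse. The mean of Itga2 over 8 mice is 58.3 and 48.4 CPM in clusters 0 and 14 and under 10 CPM in clusters 1 and 17.

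The counts were deposited as spliced, unspliced and ambiguous, and nuclei hold mostly unspliced RNA. Among the 7 genes with at least 20 spliced and unspliced UMIs in hepatocyte nuclei of every Liver and Primary Hepatocytes sample, 6 differed in their spliced share (exact permutation test over samples, two-sided, p adjusted over all 10756 genes), 5 higher in culture and 1 lower, where 60.5% of all genes were higher and 5.04% lower. The share over all genes was 19.5% in Liver, 26.9% in Cell Suspension, which was not part of this test, and 28.6% in culture. From Liver to culture the median gene moved by 4.44 percentage points. Itgb1 had the largest rise of the 7, from 9.86% to 16.0% over the Liver samples to 26.2% to 32.0% in culture (means 13.0% and 29.1%, exact permutation adjusted p = 0.00055). Itga3 rose from 15.9% to 26.3%, Itga6 from 10.4% to 16.6%, Itga1 from 12.2% to 16.3% and Itgav from 6.50% to 10.2% (exact permutation adjusted p from 0.0019 to 0.0385).

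Itga2 went the other way. Its spliced share was 26.7% to 48.0% in Liver and 11.6% to 15.1% in culture, with means of 36.9% ± 7.90 and 13.1% ± 1.27 (SD, n = 8 each), a difference of -23.8 percentage points with no overlap (exact permutation adjusted p = 0.00055, its raw p the smallest that 12870 regroupings allow). The level of Itga2 rose from Liver to culture, and in both most of its spliced and unspliced UMIs were unspliced. Most of the fall in share was already present in Cell Suspension, on few UMIs. The level had not risen there (mean 2.79 CPM in Cell Suspension, 3.71 CPM in Liver). Spliced and unspliced UMIs of Itga2 in hepatocyte nuclei of Cell Suspension were 5 and 17, 4 and 20, 7 and 14, and 5 and 29 in mice 1 to 4. They were 2 and 15, 2 and 13, 2 and 6, and 2 and 19 in mice 5 to 8. Liver samples held 12 to 28 and 13 to 59. Counted on spliced UMIs alone, Itga2 was lower in Cell Suspension than in Liver by 1.75 on the log2 scale (edgeR adjusted p = 0.00228). Itga5 had 35.1% and 32.1% and did not pass (exact permutation adjusted p = 0.29).

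The remaining 16 integrin subunit genes were read beside these. Between Primary Hepatocytes and Liver 8 were higher and 5 lower of 16 in hepatocytes, 2 higher and 4 lower of 15 tested in endothelial nuclei, and 1 higher and 3 lower of 13 tested in stellate nuclei. Over all genes 27.5% were called higher and 26.7% lower in hepatocytes, 14% and 21.5% in endothelial nuclei and 7.23% and 15.7% in stellate nuclei, and these shares also stand beside the lists that follow. Itga9, whose dimer with Itgb1 binds tenascin, had its highest level in Kupffer nuclei at 1633 CPM, and fell in endothelial nuclei from 968 to 267 CPM (log2 difference -2.14). Itga8, a partner of Itgb1 that binds nephronectin, fell from 323 to 7.40 CPM in endothelial (-5.84) and from 292 to 12.1 CPM in stellate nuclei (-4.72), where the cultured mean was 7.30 CPM without mouse 3. In hepatocytes the laminin receptor chain Itga7 fell from 27.6 to 6.70 CPM (-2.55), and Itgb5, a further partner of Itgav, from 83.5 to 61.3 CPM (-0.97). Itga2b, the platelet receptor chain that pairs with Itgb3, rose from 4.68 to 26.3 CPM (1.97) and the laminin receptor chain Itgb4 from 2.61 to 12.4 CPM (1.77). The collagen receptor chain Itga11 had 16.2 CPM in stellate nuclei of Liver and 48.3 CPM in culture, a log2 difference of 1.12 ± 0.45 that did not pass (edgeR adjusted p = 0.063).

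Among 39 genes for integrin adaptors and signalling, 21 were higher and 7 lower in cultured hepatocytes (27.5% and 26.7% of all genes), with a median log2 difference of 0.56 against 0.04 over all genes. Flna, the actin crosslinker filamin A (6.10), the kinase Src (4.97) and Pdlim7 (3.07) rose most, and Tln2 (-2.75), Tns2 (-1.35) and Rap1a (-0.70) fell most. In endothelial nuclei 5 rose and 15 fell of 38 (14% and 21.5% of all genes), with a median of -0.28 against -0.11, led by Zyx (1.81), Flna (0.89) and Pdlim7 (0.88) upwards and by Tgfb1i1 (-2.60), Tln2 (-2.48) and Bcar1 (-1.89) downwards. In stellate nuclei 1 rose and 11 fell of 36 (7.23% and 15.7% of all genes), with a median of -0.41 against -0.33. There Pdlim7 (1.17) rose, and Tln2 (-2.87), Tns2 (-2.14) and Actn4 (-1.65) fell most. Tln2, 1 of the 2 talins, was among the 3 with the largest fall in each of these cell types.

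Of 36 matrix proteins that integrins bind, 11 were higher and 10 lower in cultured hepatocytes (median -0.07), beside 27.5% and 26.7% over all genes. The matricellular proteins Ccn2 (6.79) and Ccn1 (3.24) and the basement membrane protein Nid1 (4.69) rose most, while the plasma proteins Vtn (-2.04), Fgg (-1.97) and Fga (-1.87), ligands of Itgav and Itgb3, fell most. Ccn1 was already higher after isolation, by 4.64 in hepatocyte, 2.72 in endothelial, 2.91 in stellate and 2.83 in Kupffer nuclei. In endothelial nuclei 7 of 31 rose and 9 fell (14% and 21.5% of all genes), with Ccn1 (2.11), Ccn2 (1.60) and the laminin chain Lamc1 (1.26) against Fbn1 (-3.96), Col5a2 (-3.95) and Vwf (-3.44). In stellate nuclei 7 of 34 rose and 9 fell (7.23% and 15.7% of all genes), with Thbs1 (3.49), Lama4 (1.64) and Ccn1 (1.53) against Lama2 (-3.88), Postn (-3.87) and Lamb3 (-2.30). Of the 8 genes for latent TGF-beta and its carriers, 3 rose and none fell in cultured hepatocytes (27.5% and 26.7% of all genes), led by Tgfb2 (4.26, from 1.86 to 51.1 CPM). In cultured endothelial nuclei 1 rose, Lrrc32 (1.80), and 2 fell, Ltbp4 (-4.28) and Tgfb2 (-1.70), and in stellate nuclei Tgfb3 (2.21) and Tgfb1 (1.72) rose and Ltbp4 (-1.43) and Ltbp1 (-1.33) fell.

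Likeness of pattern was measured by Pearson's r of log2(mean CPM + 1) over 13 groups of cell type and sample type, which share samples and pools, for 11431 genes. The genes most like Itga1 were Slc9a3r2 (r = 0.95) and Gm17167 (0.93), those most like Itga2 Arl2bp (0.92) and Rps18 (0.90), and those most like Itga3 Anxa7 (0.91) and Pawr (0.89). Itga5 was closest to Avl9 and Gm41414 (both 0.91), Itga6 to Iqsec1 (0.92) and Smarce1 (0.91), and Itgav to Slc12a2 (0.93) and Spire1 (0.91). For the beta chains these were Tbc1d1 and Cenpc1 (both 0.93) for Itgb1, Mboat2 (0.95) and AC133601.1 (0.94) for Itgb3, Smtnl2 (0.94) and Zfp316 (0.93) for Itgb6, and Igdcc4 (0.93) and Rab27b (0.91) for Itgb8. None of the 10 integrin genes was among the 2 closest genes of another.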

How the data were processed

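Nuclei of 24 samples were measured with a 10x Genomics 3′ kit in 6 pools, deposited as 6 RNA and 6 hashtag libraries. The authors converted reads with bcl2fastq 2.19.0, counted UMIs with Salmon and alevin-fry against GRCm38, removed hashtag negatives, hashtag doublets and inferred doublets, and deposited raw spliced, unspliced and ambiguous counts per gene and barcode, with a table of sample, cell type and cluster per nucleus, from which groups were taken. Here the 3 counts were added and summed per sample and cell type (at least 10 nuclei), and tested with edgeR 4.0.16 (R 4.3.3): TMM, quasi-likelihood, sample type as the only term, genes with at least 10 counts, Benjamini-Hochberg over all genes, threshold 0.05. The SE is the absolute log2 difference over the root of F. The fits were tested on simulated data. The simulation kept only genes with more counts than the tests required, used the same spread for every gene, and had no effect of mouse or pool. Recovery of rarely counted genes was not simulated. In the simulation the endothelial and stellate fits and the difference between cell types recovered fewer of the smaller changes than the hepatocyte fit did. The difference between cell types also recovered fewer of the larger ones. The integrin genes and all gene lists were chosen with earlier results of these data known.

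Named were the 10 genes, other integrin subunits reaching 20 CPM, the 3 list genes that rose and the 3 that fell most among those called and reaching 20 CPM, and the 2 closest genes by r. Numbers mark mice, so samples are paired: over 3864 genes, deviations of Liver and Cell Suspension from 1 mouse correlated at 0.42 to 0.90, and those with Primary Hepatocytes at -0.12 to 0.17. Alternatives were RLE, library totals, DESeq2 1.42.0, other filters, spliced or unspliced UMIs, mouse block, pool, deeper nuclei, wider annotation and leaving out each mouse. Hashtag counts and Primary Hepatocytes nuclei outside the clusters named were not used in tests.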

Additional observations from a re-analysis of the deposited data

Results flagged for a closer look

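In 71 groups of 4 to 8 samples, the gap of the highest or lowest sample to the nearest other was set against the whole range, which marks about 1 group in 20 by chance, and 5 samples stood apart. Itga1 in Kupffer nuclei of Cell Suspension was 98.8 CPM in mouse 4, on 6 UMIs, with the next sample at 46.6 CPM. Itga3 in biliary-named nuclei of Liver was 0 CPM in mouse 6, with the next at 164 CPM. Itga5 in stellate nuclei of Liver was 37.9 CPM in mouse 8, on 11 UMIs, with the next at 24.6 CPM. Itgav in hepatocyte nuclei of Liver was 53.1 CPM in mouse 5, on 1542 UMIs, with the next at 43.7 CPM. Itgb3 in endothelial nuclei of Liver was 62.7 CPM in mouse 2, on 49 UMIs, with the next at 34.9 CPM.

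The change of 7 gene and comparison pairs differed between endothelial and hepatocyte nuclei by the edgeR interaction test, given as the endothelial minus the hepatocyte log2 change. From Liver to Primary Hepatocytes these were Itgb3 (2.31), Itga3 (1.81), Itgb1 (-0.50), Itga1 (-1.11) and Itga6 (-2.59). From Liver to Cell Suspension they were Itga6 (-0.98) and Itgb3 (-1.90). The limits given above, of endothelial cluster composition and of hepatocyte Itgb3 below free RNA, hold here too.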

How the results depend on the processing

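Counts of integrin genes called stayed within 1.5 times the main count in 205 of 229 alternatives. The exceptions were hepatocyte Cell Suspension against Liver, with 2 called in place of 1 under RLE, library totals, DESeq2, filterByExpr, the wider annotation or the mouse as a replicate block, and 3 on spliced UMIs. The same step gave 1 in place of 0 in endothelial nuclei (RLE, DESeq2, filterByExpr), in stellate nuclei (no filter, unspliced UMIs) and in Kupffer nuclei (pool). The endothelial minus hepatocyte change from Liver to Cell Suspension gave 1 in place of 2 with RLE, library totals, spliced UMIs or nuclei of at least 1000 UMIs, and stellate Primary Hepatocytes against Cell Suspension gave 1 in place of 4 with filterByExpr, which kept 4 of the 10 genes. The mouse block moved no other count by over 1.5 times. Leaving out 1 mouse gave 1 to 2, 6 to 7 and 8 in hepatocytes (Cell Suspension against Liver, Primary Hepatocytes against Cell Suspension and against Liver), 0, 5 and 5 to 6 in endothelial nuclei, 0, 4 and 4 to 5 in stellate nuclei, 0 in Kupffer nuclei, 1 to 2 and 5 to 6 for the difference between cell types (Cell Suspension, Primary Hepatocytes), and 5 to 6 for the spliced share. Without mice 1, 3, 5 or 7, Itga6 no longer differed between the cell types after isolation.

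Log2 differences that changed sign were Itga5 in cultured hepatocytes against Liver (0.51) and against Cell Suspension (0.70) and Bcar1 there (0.0196) with library totals. On spliced UMIs they were Itgb5 in hepatocytes after isolation (0.66), Itga9 (-0.62) and Itgb7 (-0.39) in cultured hepatocytes, Fgb (-0.64) and Fga (-0.0257) in stellate nuclei after isolation, and Itga3 for the difference between cell types in culture (-0.0022). With the pool it was Itgal in cultured endothelial nuclei (0.0438). The Itga1 difference between cell types in culture was lost with the wider annotation (-0.30, edgeR adjusted p = 0.353). The causes were not tested. With each nucleus thinned or free RNA subtracted, all 10 genes remained highest outside hepatocytes in Liver, again without a share over all genes. Scaling moved the share of calls that were higher by over 10 points. With library totals it was 17.9% in hepatocytes, 40.9% in endothelial and 78.3% in stellate nuclei after isolation. For Primary Hepatocytes against Liver it was 53.7% in endothelial (39.4% with TMM) and 62.2% in stellate nuclei, and against Cell Suspension 79.9% in hepatocytes (53.4% with TMM), 61.0% in endothelial (39.4%) and 56.3% in stellate nuclei (41.7%). For the difference between cell types it was 48.0% after isolation (24.1% with TMM) and 30.8% in culture (56.9%). Depth limits the stellate, leukocyte and biliary values most.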

Other observations

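Cluster 8 of the authors held a further 1450 cultured nuclei, which were not assigned to a cell type here and were left out of the cell type sums. Its level of Itgb3 was 22.2 CPM on average over 8 mice, with a lowest sample of 6.5 and a highest of 62.1 CPM, between cultured hepatocyte (4.01 CPM) and endothelial nuclei (640.1 CPM). Itgav had 172 CPM, Itgb1 189 CPM, Itga3 44.6 CPM and Itga2 24.3 CPM there. Its 8 hepatocyte markers summed to 3082 to 7473 CPM and its 8 endothelial markers to 150 to 544 CPM. Over all genes its spliced share was 40.4% ± 3.0 (SD, n = 8), against 28.6% ± 1.57 in cultured hepatocyte nuclei.

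Under the leukocyte name, Liver nuclei also held the leukocyte integrin genes Itga4 (601 CPM, a homing receptor chain), Itgal (285 CPM, the alpha chain of LFA-1), Itgb2 (124 CPM), Itgb7 (82.7 CPM) and its partner Itgae. Itgae had 35.5 CPM on 27 UMIs, with 174 CPM in mouse 5 and a mean of 15.6 CPM without it. Kupffer nuclei had 260 CPM of Itga4, 347 CPM of Itgal and 84.5 CPM of Itgb2, with 34.6 CPM of its myeloid partner Itgam in Liver and 24.6 CPM of Itgax in Cell Suspension on 16 UMIs (14.8 CPM without mouse 6).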
